A study of Homo sapiens with 2 samples.

Results

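ATP-binding cassette (ABC) transporter genes were followed in a pancreatic cancer line that had been made resistant to olaparib. The members were taken by symbol, as protein-coding genes named ABC with a subfamily letter A to G and a number, outside chromosome 13. Of the 31845 genes listed, 42 met this rule, and ABCC12 and ABCG4, 2 further genes of the family, were not analysed here. RNA sequencing compared 1 library of Capan-1 cells made resistant by stepwise exposure to olaparib, starting at 15 nM and ending at 128 uM, with 1 library of the parental Capan-1 cells. The Capan-1 line, from which both groups derive, came from a pancreatic adenocarcinoma and carries mutant BRCA2. Whether the BRCA2 sequence was unchanged in the resistant cells was not tested. Olaparib inhibits the PARP enzymes. The labels call the cell type breast cancer. Whether the resistant line is a clone, and whether olaparib was present at harvest, is not given in the sources used here. The heading of the resistant library's columns is not spelled out in the labels. It was assigned as the library left after the parental one was matched by name, and every direction below rests on that. With a single library on each side, nothing was tested, and the 95% intervals below cover counting error only. In bulk RNA, fewer cells that use a gene and less RNA per cell cannot be told apart.

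ABC transporters use the energy of ATP to move substrates across membranes. Most combine membrane-spanning segments with nucleotide-binding domains, in a single protein or in a pair of smaller ones. Their cargo ranges from cholesterol and phospholipids (many ABCA and ABCG proteins) through drugs, bile salts and organic anions (ABCB and ABCC) to fatty acids entering peroxisomes (ABCD), while ABCE and ABCF proteins have no membrane segments and act on ribosomes and translation. ABCB1 (P-glycoprotein), ABCC1 (MRP1) and ABCG2 (BCRP) are the best-known drug pumps, and olaparib is a substrate of ABCB1.

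The resistant library held 34507480 counts over 27940 genes above 0 and the parental library 34572931 over 28834. Epithelial markers were abundant in both, as all 5 listed genes passed 50 counts with sums of 168925 resistant and 112400 parental counts. All 5 listed duct markers passed it too, with a median log2 ratio, resistant over parental, of -1.34. Of them 3 were at least 2-fold lower in resistant cells, CA2 (-2.28), CFTR (-1.79) and MUC1 (-1.34). Over coding genes at 50 counts or more, 8.75% were lower by that measure. SOX9 was at -0.74, and KRT7, at 0.54, had 20455 resistant and 14193 parental counts. Endothelial markers summed to 3 counts in each library, and fibroblast markers to 580 resistant and 133 parental counts. LUM had 523 and 35 of these, and COL1A1, which went the other way, had 38 and 97. Their part in the results below was not tested. Leukocyte markers summed to 608 resistant and 375 parental counts. Of these CD68 had 582 and 351, and PTPRC 19 and 7. Of the mammary markers that the label might call for, 4 of 5 listed passed the minimum, all with log2 ratios below 0. Of these 3 were at least 2-fold lower, beside 8.75% of coding genes. AGR3 had 6300 resistant and 15757 parental counts, MLPH 760 and 2185, GATA3 486 and 1884, and TRPS1 81 and 119. ESR1 stayed below the minimum with 18 and 8.

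The length behind each value has to be given first, because it sets what a count refers to. The count over the FPKM value (fragments per kilobase of length, scaled to the sequenced total) gives the length used for a gene. Among 8413 coding genes with several annotated transcripts, this implied length equalled that of a single GENCODE transcript, to within 1.5 bases plus rounding, in 87.8%. A shift of all lengths by 37 bases left 1.88% matching. Among the 7384 genes that matched, the matching transcript was the gene's longest in 19.98%, and in 46.2% no protein-coding transcript matched. Of the single-transcript genes used for calibration in the parental library, 72.1% matched. The FPKM denominator implied by single-transcript genes exceeded the listed total, which made up 40.5% of it for resistant and 39.0% for parental cells. HSP90AA1, an abundant chaperone gene in most cells, was listed with 18 resistant and 42 parental counts and an implied length of 595 bases, while HSP90AB1, at 2674 bases and full length, had 60919 and 53937. Whether a count holds the reads of the whole gene or of that transcript alone is not given in the sources used here. The implied length is therefore given beside the values below.

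Of the 42 members, 25 reached 50 counts in 1 library or both, the minimum used for calls. Past 2-fold, 4 of the 25 were higher in resistant cells and 6 were lower. Over all 15102 genes at that minimum, 6% were higher and 8.95% lower by the same measure. Over the 12143 coding genes the shares were 5.47% and 8.75%. The median log2 ratio of the members was -0.05, beside 0.09 for the coding genes and 0.06 for all genes at the minimum. The sign of the members' median depended on the scaling, and no direction is read from it. The 25 members spread from -2.45 (ABCA6) to 1.44 (ABCA7), with 12 above 0 and 13 below. Log2 ratios include a prior of 1 count, and fold values do not.

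**Figure D1:**
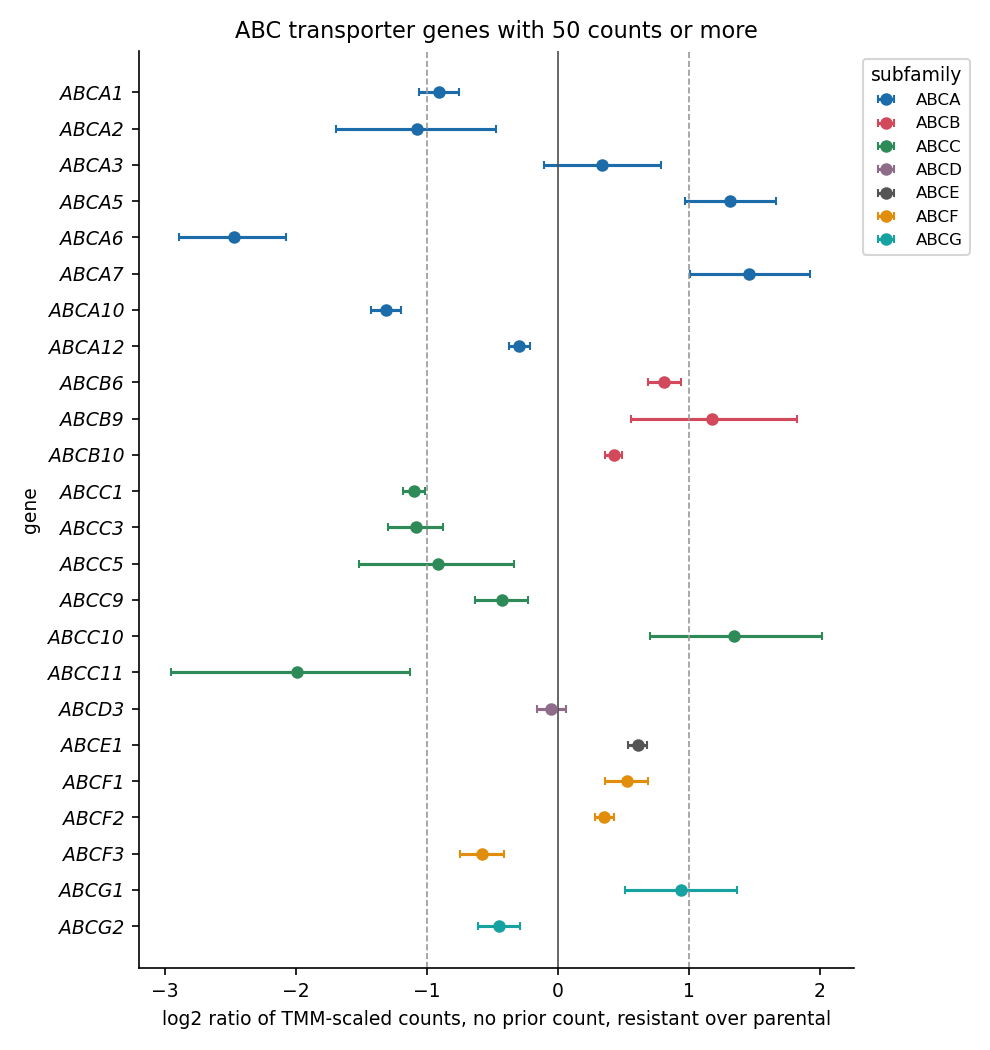
Log2 ratio of TMM-scaled counts, resistant over parental, without a prior count, for 24 of the 25 ABC genes with at least 50 counts in the higher library, coloured by subfamily. Bars are exact 95% counting intervals, dashed lines mark 2-fold, and ABCA3 and ABCD3 are the 2 genes whose interval includes equal levels.

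Of the 3 drug pumps, ABCC1 and ABCG2 were lower in resistant cells and ABCB1 was barely detected. ABCB1 had 10 resistant and 4 parental counts, with FPKM values of 0.025 and 0.010. The ratio of 2.52 had an interval of 0.726 to 11.0, so a difference was not detectable at this depth. Its implied length matched a protein-coding transcript, at 98.4% of the longest. RUNDC3B lies across ABCB1 on the other strand, and whether counting used strand is not given.

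ABCC1, which exports glutathione conjugates and several anticancer drugs, had 1564 resistant and 3366 parental counts. Its FPKM values were 2.89 and 5.96. The level was 2.14-fold lower in the resistant library (interval 2.01 to 2.27), with an implied length of 6369 bases that matched no GENCODE transcript exactly but reached 96.6% of the longest. With the trend of log2 ratio on implied length removed, its log2 ratio was -0.75 in place of -1.10, short of 2-fold. ABCG2, which works as a pair and pumps many drugs and urate, had 553 resistant and 759 parental counts. It was 1.36-fold lower (interval 1.22 to 1.52), at the 4276 bases of a protein-coding transcript. Its log2 ratio was -0.45, and -0.22 with the length trend removed. The median was -0.35 for the 1792 coding genes at 4000 bases or more, and -0.40 for the chromosomal neighbours of ABCG2. By FPKM, ABCG2 stood at 1.52 in the resistant and 2 in the parental library. ABCC1 had the highest FPKM of the 3 pumps in both libraries and ABCB1 the lowest.

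The ABCA subfamily, whose best-studied members move lipids, spread most widely. Of its 12 listed members 8 reached 50 counts, with 2 higher and 3 lower past 2-fold and a median log2 ratio of -0.60, which was -0.10 with the length trend removed. ABCA6 had 60 resistant and 335 parental counts, a 5.55-fold lower level (interval 4.20 to 7.43). ABCA10 had 906 and 2261 counts and was 2.48-fold lower (interval 2.29 to 2.68), though its log2 ratio was -0.98 with the length trend removed. ABCA5, their neighbour on chromosome 17, had 245 resistant and 99 parental counts and was 2.49-fold higher (interval 1.97 to 3.18).

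ABCA5, ABCA6, ABCA8, ABCA9 and ABCA10 form a cluster of related genes on chromosome 17, and related copies may share reads. ABCA10 also overlaps the end of ABCA5 on the same strand. ABCA8 had 4 resistant and 0 parental counts, and ABCA9 had 2 and 8. The lengths differed as well: ABCA5 was listed at the 804 bases of a non-stop decay transcript at 9.78% of the longest, while ABCA6 had 5302 bases (protein-coding, 64.8%) and ABCA10 6126 bases (nonsense-mediated decay, 96.3%). Among the 25 members at the minimum, the cluster held the lowest log2 ratio and 1 of the 4 higher genes.

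The promoters of ABCA5 and ABCA6 are shown because these genes of 1 cluster differed in opposite directions. Each sequence is the 250 bases before the RefSeq start in GRCh38.p14, minus strand, written 5′ to 3′, with capitals for a GC box or a CCAAT box. ABCA5 lies at chr17:69327134-69327383 and ABCA6 at chr17:69141896-69142145.
ABCA5: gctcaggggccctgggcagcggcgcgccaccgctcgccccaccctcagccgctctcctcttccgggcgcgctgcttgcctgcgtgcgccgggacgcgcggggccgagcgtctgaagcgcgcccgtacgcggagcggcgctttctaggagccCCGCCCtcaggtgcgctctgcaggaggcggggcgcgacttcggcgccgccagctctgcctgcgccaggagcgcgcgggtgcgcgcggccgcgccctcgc
ABCA6: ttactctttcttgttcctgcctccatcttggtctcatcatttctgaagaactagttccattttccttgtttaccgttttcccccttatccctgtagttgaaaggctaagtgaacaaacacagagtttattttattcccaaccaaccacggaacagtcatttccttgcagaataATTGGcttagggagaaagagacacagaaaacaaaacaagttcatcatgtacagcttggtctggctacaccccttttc
The ABCA5 window was 79.2% G or C with 42 CpG sites, more than 95.8% of the 35116 promoter windows in the table by G and C content, and the ABCA6 window was 40.8% with 2 CpG sites, more than 14.1%. The median window had 58.0% G or C. Both strands were searched for the GC box, spelled GGGCGG, for the CCAAT box, spelled as its name, and for the TATA box, spelled TATAAA, and the matches here do not overlap. ABCA5 held 1 GC box on the reverse strand, present in 42.6% of all windows, and ABCA6 1 CCAAT box on the reverse strand, present in 32.0%. The TATA box occurred in neither window and in 10.7% of all. These matches describe the letters and not factor binding. Of the 42 members, 32 had a promoter in the table.

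The other ABCA genes also differed among themselves. ABCA7, a phospholipid transporter linked to Alzheimer risk, had 153 resistant and 56 parental counts, 2.75-fold higher (interval 2.01 to 3.81). It was listed at the 725 bases of an intron-retaining transcript. ABCA1, which loads cholesterol onto apolipoprotein A-I, had 548 resistant and 1032 parental counts, 1.87-fold lower (interval 1.69 to 2.08), at its full length of 10495 bases. The ABCA1 log2 ratio of -0.90 was -0.38 with the length trend removed. ABCA2, a lysosomal lipid transporter, had 35 and 74 counts, 2.10-fold lower (interval 1.39 to 3.24), at 997 bases of an intron-retaining transcript. Its log2 ratio of -1.05 was -0.98 with upper quartile scaling and -0.97 with a prior of 5 counts, short of 2-fold.

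ABCA12, a keratinocyte lipid transporter mutated in harlequin ichthyosis, had 2233 resistant and 2755 parental counts at full length, 1.23-fold lower (interval 1.16 to 1.30), but its log2 ratio turned from -0.29 into 0.18 when the length trend was removed. ABCA3, the surfactant lipid transporter of lung alveolar cells, had 98 and 78 counts, and its interval of 0.930 to 1.73, at 1205 bases, included equal levels. Below the minimum, ABCA4, the retinal transporter mutated in Stargardt disease, had 18 and 5 counts, and ABCA13 had 7 and 14. ABCA12 had the most counts of the subfamily in both libraries, and ABCA10 the highest parental FPKM at 4.16, against 1.74 in the resistant library.

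In the ABCB subfamily all 4 members at the minimum had log2 ratios above 0, and their median was 0.68. ABCB10, a mitochondrial transporter needed for haem synthesis, had 4262 resistant and 3193 parental counts, 1.34-fold higher (interval 1.28 to 1.41). ABCB6, a porphyrin transporter and the carrier of the Langereis blood group, had 1345 and 770 counts, 1.76-fold higher (interval 1.61 to 1.92).

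ABCB10 was listed at its full length of 3857 bases, while the 2238 bases for ABCB6, 73.5% of the longest transcript, matched no transcript exactly. ABCB9, a lysosomal peptide transporter related to TAP, had 72 resistant and 32 parental counts and was the 1 member of the subfamily past 2-fold, at 2.27-fold higher (interval 1.47 to 3.55). It was listed at 917 bases and overlaps ARL6IP4 and OGFOD2 on the other strand. ABCB8, a subunit of a mitochondrial potassium channel, stayed just below the minimum with 45 and 15 counts, a ratio of 3.02 (interval 1.65 to 5.83).

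The bile transporters of this subfamily had few counts. ABCB11, the bile salt export pump, had 10 resistant and 23 parental counts, and ABCB4, the biliary phosphatidylcholine floppase, had 1 and 13. The ABCB11 ratio was 0.438 with an interval of 0.186 to 0.956, and the ABCB4 ratio 0.0774 with an interval of 0.00182 to 0.516. Both genes were below the minimum. ABCB5 had 4 and 0 counts. NR1H4 encodes the bile acid receptor FXR, which is known to induce ABCB11 and ABCB4. NR1H4 had 39 resistant and 315 parental counts, 8.02-fold lower. A link between its level and those of ABCB11 and ABCB4 was not tested. NR1H4 was the 1 gene past 2-fold among 11 xenobiotic sensors and regulators at the minimum. Coding genes at the minimum gave 5.47% higher and 8.75% lower.

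The ABCC subfamily leaned the other way, with 5 of 6 members at the minimum having log2 ratios below 0 and a median of -0.99. Besides ABCC1, ABCC3, a basolateral exporter of glucuronides and bile salts, had 275 resistant and 587 parental counts, 2.12-fold lower (interval 1.83 to 2.46), at 1562 bases of an intron-retaining transcript. ABCC11, the transporter behind the earwax type, had 14 and 56 counts, 3.97-fold lower (interval 2.18 to 7.73), at full length. It lies opposite LONP2 on the other strand.

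ABCC9, a sulfonylurea receptor subunit of ATP-sensitive potassium channels, had 358 resistant and 485 parental counts at full length, 1.35-fold lower (interval 1.17 to 1.55), but its log2 ratio of -0.43 became 0.0086 without the length trend. ABCC5, an exporter of cyclic nucleotides, had 39 and 74 counts, 1.89-fold lower (interval 1.26 to 2.85), at 732 bases. ABCC10 (MRP7), which transports taxanes, was the exception at 73 and 29 counts, 2.53-fold higher (interval 1.63 to 4.04), at 721 bases of a short coding transcript. DLK2 overlaps it on the other strand.

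Below the minimum, ABCC8, the pancreatic beta-cell sulfonylurea receptor, had 9 resistant and 44 parental counts, a ratio of 0.206 (interval 0.0884 to 0.427). Its channel partner KCNJ11 had 1 and 10 counts, and KCNJ8, another partner, was not analysed here. ABCC2 (MRP2), the canalicular conjugate pump, had 9 resistant and 0 parental counts at 1706 bases. ABCC6 had 12 and 4 counts and has near-identical pseudogene copies, so its value is uncertain. The listed ABCC counts summed to 2353 for resistant and 4645 for parental cells, with ABCC1 holding most of both.

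**Figure D2:**
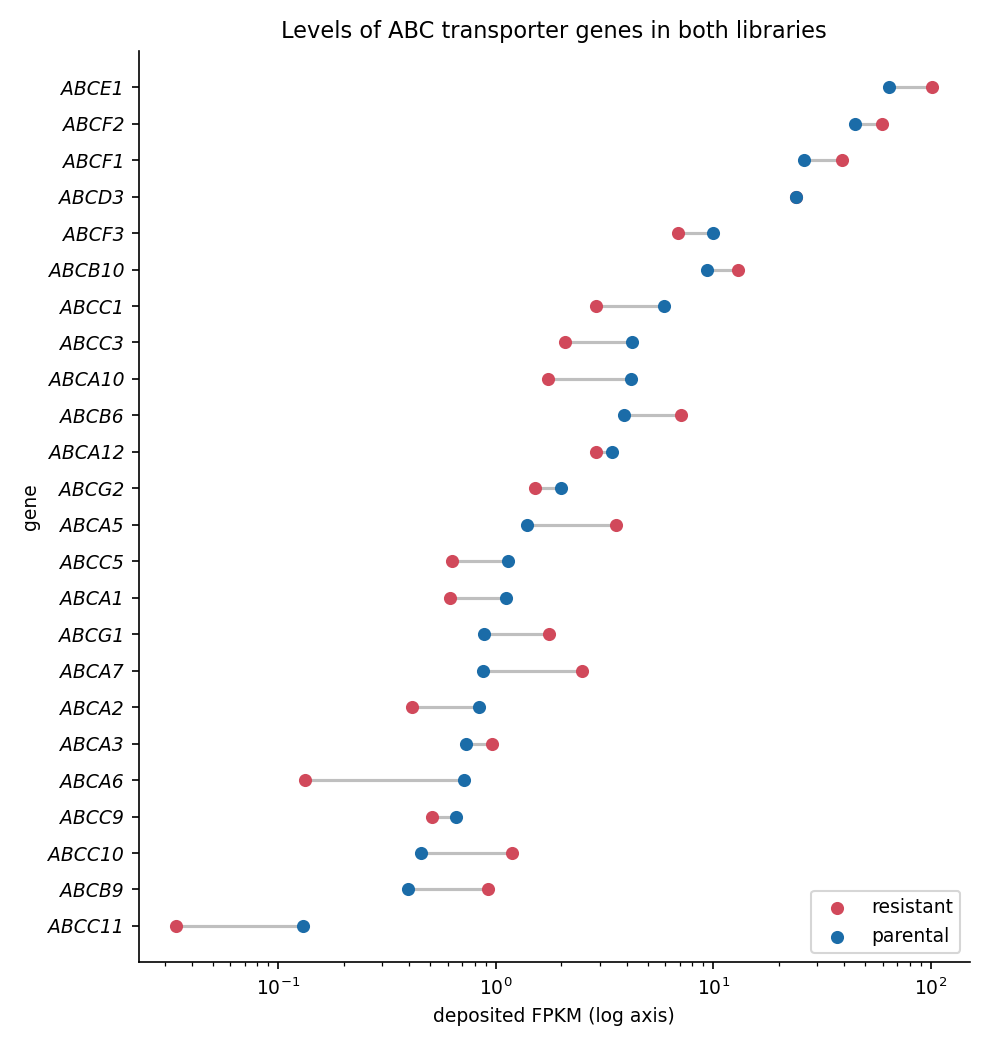
Deposited FPKM of 24 of the 25 ABC genes with at least 50 counts, on a log axis, in the resistant and the parental library, ordered by the parental value. ABCE1 is highest in both libraries and ABCC11 lowest, and each FPKM is per kilobase of the implied length.

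Genes of the ABCD subfamily carry fatty acids into peroxisomes, apart from ABCD4. ABCD3, the major peroxisomal membrane transporter for branched-chain and bile acid precursors, had 1276 resistant and 1329 parental counts, with FPKM values of 24.1 and 24.0. Its ratio of 0.967 had an interval of 0.894 to 1.04, which included equal levels, at 623 bases of a processed transcript. ABCD4, a lysosomal cobalamin transporter, had 19 resistant and 38 parental counts, and ABCD2 had 0 and 2. Both stayed below the minimum. The ABCD4 ratio was 0.503 (interval 0.274 to 0.895), and the ABCD2 interval of 0 to 5.36 gave no direction.

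ABCE1, ABCF2 and ABCF1, which encode soluble proteins, had the highest FPKM values of the family, each per kilobase of a short implied length. By counts the order differed, with ABCB10 highest in the resistant library (4262) and ABCC1 in the parental one (3366). ABCE1, which splits ribosomes after termination, stood at 101 FPKM in resistant and 64.0 in parental cells, with 3622 and 2391 counts. It was 1.53-fold higher (interval 1.45 to 1.61), at 421 bases of a processed transcript. OTUD4 and ANAPC10 overlap it on the other strand.

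ABCF2 had 3287 resistant and 2584 parental counts, 1.28-fold higher (interval 1.22 to 1.35), at 648 bases. ABCF1, which binds the initiation factor eIF2, had 740 and 517 counts, 1.44-fold higher (interval 1.29 to 1.62), at 223 bases of an intron-retaining transcript, the shortest length in the family. ABCF3, related to yeast Gcn20, had 476 and 715 counts and was 1.49-fold lower (interval 1.33 to 1.68), at 813 bases. None of the ABCE and ABCF genes passed 2-fold, and none was listed at more than 28.6% of its longest transcript.

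In the ABCG subfamily, ABCG1, which passes cholesterol to high-density lipoprotein, had 137 resistant and 72 parental counts, 1.92-fold higher (interval 1.43 to 2.59). It was listed at 918 bases of a short coding transcript. ABCA1, which like ABCG1 is induced by liver X receptors in response to sterols, was on the other side of 0. ABCG5 and ABCG8, the paired exporters of plant sterols, had 33 and 6 resistant counts, against 4 and 2 parental counts. The ABCG5 ratio was 8.31 with an interval of 2.95 to 32.3, and the genes overlap on opposite strands.

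Among the 25 members at the minimum, the ratios differed with implied length. All 8 of these listed at 4000 bases or more had a log2 ratio below 0, with a median of -0.999, and the median of the 1792 coding genes of that length was -0.35. Of the 12 under 1000 bases, 8 were above 0, with a median of 0.57, beside 0.20 over 5494 coding genes. The 4 members past 2-fold higher, ABCA5, ABCA7, ABCB9 and ABCC10, were all listed at 9.78% to 15.2% of their longest transcript. Past 2-fold, 0 of the 11 members at 50% or more of the longest transcript were higher and 4 lower, where coding genes of that class gave 7.29% and 12.4%. Among the 14 members under 50%, 4 were higher and 2 lower, where coding genes gave 3.76% and 5.36%. The part of transcript length in these ratios was not tested.

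**Figure D3:**
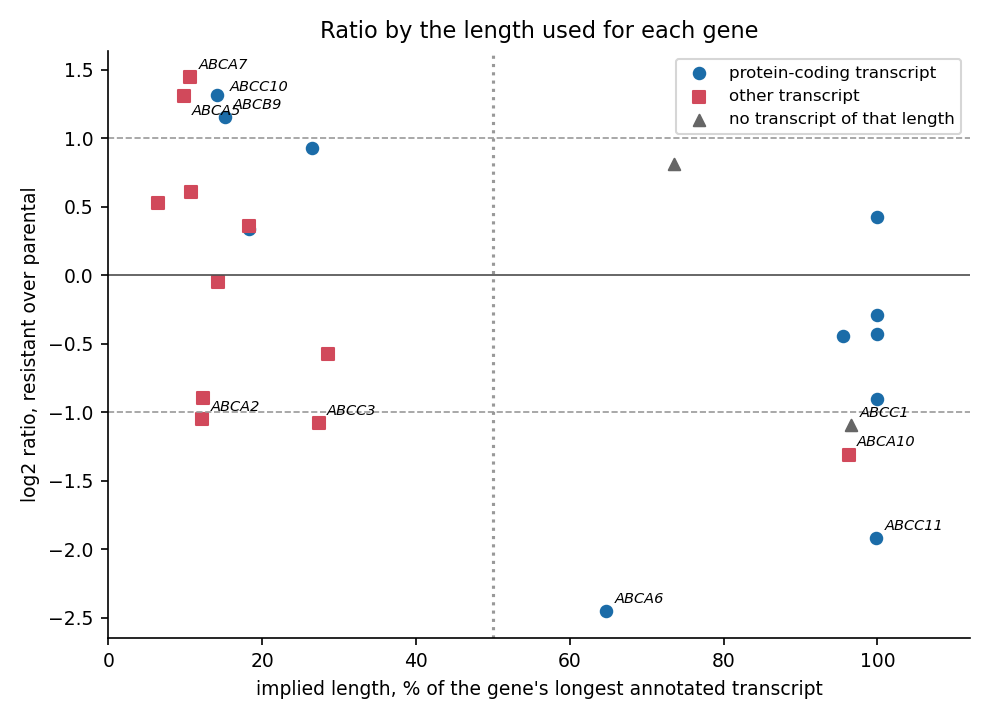
Log2 ratio, resistant over parental, of 24 of the 25 ABC genes against the implied length as a percentage of the longest annotated transcript, with symbols by the kind of transcript that has this length. Named genes are past 2-fold (dashed lines), and all 4 higher ones lie left of 50% (dotted line).

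Neighbouring genes on the chromosome were compared next. For each member at the minimum, the median log2 ratio of up to 10 measured coding genes on each side ranged from -0.43 (around ABCB10) to 0.73 (around ABCB9). None of these medians passed 2-fold. The sign was the same as that of the member for 15 of the 25. The same share over other genes is not given here, so nothing is read from it. Around ABCB9, 4 of 20 neighbours were at least 2-fold higher, where coding genes at the minimum gave 5.47%. Around ABCC1 the neighbours had a median of -0.28 beside -1.10 for the gene itself. The chromosome 17 cluster stood in a region with neighbour medians of 0.21 to 0.25, against -2.45 for ABCA6, -1.31 for ABCA10 and 1.31 for ABCA5.

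**Figure D4:**
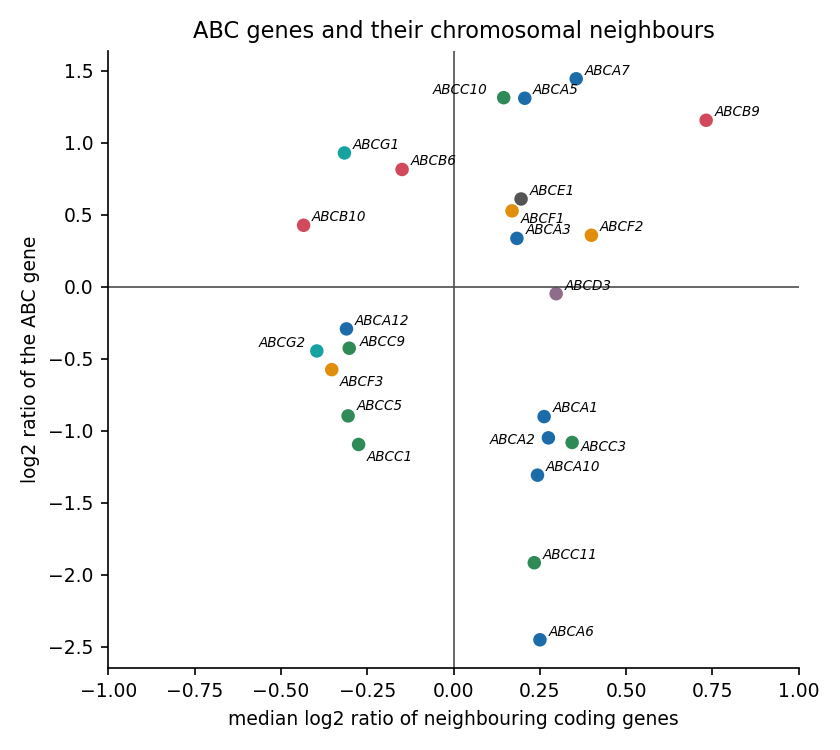
Log2 ratio of 24 of the 25 ABC genes against the median log2 ratio of the neighbouring measured coding genes, up to 10 on each side and without other ABC genes. Colours mark subfamilies, and 14 points lie in the quadrants where gene and neighbours share a sign.

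Superfamily members with other symbols were read beside the family. CFTR, the ABC protein that works as a chloride channel, had 2563 resistant and 8946 parental counts, 3.47-fold lower at 4316 bases. TAP1 and TAP2, which carry peptides into the endoplasmic reticulum for HLA class I, had log2 ratios of 0.55 and 0.46 at full length. TAP1 had 1893 resistant and 1297 parental counts. Of the 8 genes of peptide loading at the minimum, 0 passed 2-fold, where coding genes gave 5.47% higher and 8.75% lower. Their median log2 ratio was 0.28, with B2M at 0.47 and PSMB8 at 0.47.

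Genes that supply or control the transporters were mostly within 2-fold, as were 10416 of the 12143 coding genes at the minimum. Among 12 sterol efflux and uptake genes 1 was past 2-fold, SCARB1, the high-density lipoprotein receptor, with 1218 resistant and 394 parental counts and a 3.11-fold higher level. The liver X receptor genes NR1H2 and NR1H3 had log2 ratios of -0.89 and -0.81, and the list's median was 0.04. Among 7 genes of glutathione supply, GGT1, which breaks down exported glutathione, was 2.15-fold higher with 340 and 159 counts, and the median was 0.05. NFE2L2, which encodes the stress regulator NRF2, had 385 and 738 counts, a log2 ratio of -0.93 at 930 bases of an intron-retaining transcript. NR1I2, which encodes the xenobiotic receptor PXR, had 2 resistant and 9 parental counts.

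Partners of the peroxisomal, lysosomal, mitochondrial and ribosomal members had 0 genes past 2-fold. Coding genes at the minimum gave 5.47% higher and 8.75% lower. The 8 peroxisome genes had a median log2 ratio of -0.13, with HSD17B4 at 0.75. The 5 cobalamin genes had a median of 0.34, led by TCN2 at 0.96 and MMADHC at 0.43. The 10 genes of mitochondrial iron, haem and cluster formation had a median of -0.07, with ALAS1, the first enzyme of haem synthesis, at -0.93 and FECH, the last, at 0.88. The 11 genes of ribosome recycling and translation had a median of 0.36, with DENR at 0.82 and HBS1L at 0.53. Of the lamellar and lipid list, 2 genes reached the minimum, UGCG at -0.77 and LAMP3 at -0.45.

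**Figure D5:**
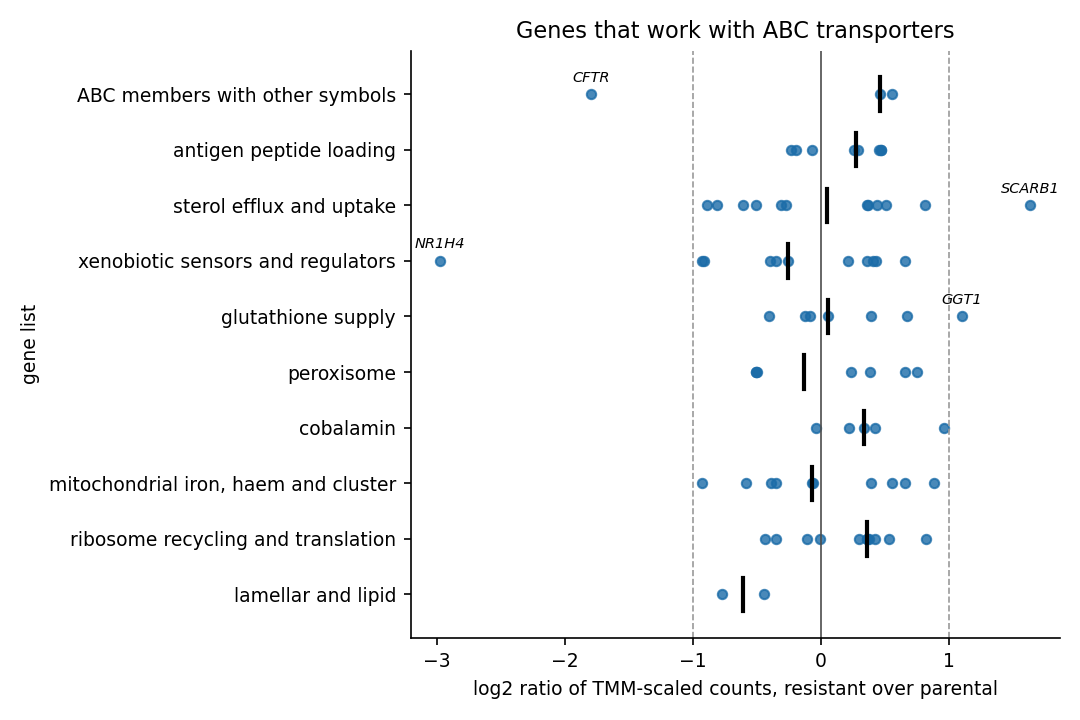
Log2 ratio of TMM-scaled counts, resistant over parental, of partner genes with at least 50 counts, by list. Points are genes, 1 of them not drawn, black bars are medians of the full lists and dashed lines mark 2-fold, and CFTR, SCARB1, NR1H4 and GGT1 are the named genes past it.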

How the data were processed

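The table deposited by the authors gives whole-number counts and FPKM values per Ensembl gene for 2 libraries, per the file headers. The deposited FPKM values imply 1 length for each gene. Per the submitters' processing notes, RSEM 1.2.3 and hg19 are listed, in roles not given in the sources used here. Libraries were ScriptSeq, strand-specific, from Trizol RNA, per the labels' protocols. The columns headed CAPAN1 were taken as parental. The heading of the other columns is not spelled out, and they were taken as resistant because that library was the one left, so every direction rests on this. Counts were scaled with TMM (edgeR 4.0.16, R 4.3.3). Ratios have exact Clopper-Pearson intervals, conditional on the summed count (scipy 1.17.1). Symbols, gene types, gene order and transcript lengths came from GENCODE release 29, another build than hg19, which named 29719 identifiers. Promoters are from RefSeq. Members, lists and the rule for named genes (the 3 drug pumps, every member at 50 counts, others from 10 counts, and the largest differences of each partner list) were chosen with earlier results of these data known. Members under 10 counts, pseudogenes, HSP90AA1, HSP90AB1, KCNJ11, NR1I2, NR1H2, NR1H3, TAP1, TAP2 and NFE2L2 fall outside that rule and were named after their values were seen. Length calibration used single-transcript genes with 2000 counts or more, 298 in the resistant and 283 in the parental library. Alternatives were other scalings, prior counts, count minimums and folds, FPKM, and removal of the trend with implied length. Values of 3 genes are not reported here singly, though counts and medians include them. Calculations were tested on simulated data.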

Additional observations from a re-analysis of the deposited data

How the results depend on the processing

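No paired analysis was possible because each group has 1 library. The members' median log2 ratio of -0.05 changed sign with the setting. It was 0.0222 with upper quartile scaling, 0.0018 with FPKM, 0.18 with the length trend removed, 0.14 with no count minimum, 0.14 with TAP1, TAP2 and CFTR added, and 0.0208 for members with a protein-coding transcript of the implied length. Raising or lowering the minimum gave -0.17 at 10 counts and -0.29 at 200, and it was -0.45 for members at 50% or more of the longest transcript. The numbers higher and lower became 9 and 10 at a 10-count minimum, 13 and 12 without any minimum, and 1 and 4 at 200. They were 7 and 8 at 1.5-fold, and 0 and 2 at 3-fold. The shares over all genes were taken only at 50 counts and 2-fold. Nothing is therefore read from the numbers at other minimums or folds. A required counting interval past 2-fold left 1 higher and 4 lower. Members with a protein-coding transcript of that length gave 2 and 2, and those at 50% or more of the longest gave 0 and 4.

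With the length trend removed, ABCC1 was at -0.75, ABCG2 at -0.22 and ABCA10 at -0.98, so ABCC1 and ABCA10 no longer passed 2-fold. The ABCD median, 1 gene, became 0.0222 with upper quartile scaling and 0.0018 with FPKM. ABCA2 fell short of 2-fold with upper quartile scaling (-0.98) and a prior of 5 counts (-0.97). The causes were not tested. Without the length trend, ABCA12 (0.18) and ABCC9 (0.0086) changed sign, and the ABCA median was -0.10. ABCD3 changed sign as the ABCD median did. Besides the 3 drug pumps, 177 values of members at the minimum stayed within their counting interval, 7 moved and 0 of those past 2-fold changed sign. The median of all genes was 0.13 with upper quartile scaling and 0.11 with FPKM, against 0.06 with TMM. The number of members sharing the sign of their neighbours was 14 to 16. The implied-length alternatives and those for neighbours were added after seeing the data. Members under 50 counts are limited by depth.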

Other observations

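Non-coding copies of the family were also listed. ABCC13, a pseudogene, had 25 resistant and 1 parental counts, a ratio of 25.2 with an interval of 4.12 to 1033. ABCC6P1 had 31 and 10, which gave 3.12 (1.49 to 7.14), beside ABCC6 at 12 and 4, and reads may be shared between these near-identical genes. ABCB10P4 had 20 and 6, which gave 3.36 (1.30 to 10.2). ABCA11P, the most abundant copy, had 183 resistant and 151 parental counts, with an interval of 0.978 to 1.52 that included equal levels.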
